A study of Mus musculus with 38 samples.

Results

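Skeletal lineage transcription factors were followed through the cells of myeloma-bearing and healthy mouse bone. The genes were taken by name: Sox9, Runx2, Sp7, Dlx3, Dlx5, Msx2, Prrx1, Twist1 and Atf4. Of these 9 genes, 8 had a row among the 13260 genes of the expression table and Msx2 was not analysed here. RNA-Seq libraries of 100 FACS-sorted cells had been prepared by the SmartSeq2 method from the hindlimb bones of C57Bl/KaLwRijHsd mice, aged 8 to 10 weeks at the start. Each mouse received an intravenous injection of either PBS vehicle (healthy mice) or 1000000 cells of 5TGM1-GFP, a mouse myeloma line carrying green fluorescent protein, and all were culled on day 23. Bone-lining cells were sorted as endothelial cells (CD31+), stromal progenitors (Sca1+ALCAM-) or osteoprogenitors (ALCAM+Sca1-), with 5 healthy and 5 myeloma-bearing libraries each for the first and second sort and 4 of each for osteoprogenitors. GFP+ myeloma cells were sorted from the bone lining (5 libraries) and from the central marrow (5 libraries) of myeloma-bearing mice. A library is named below by the letter in its code. The labels do not say whether a letter stands for 1 mouse, so the p-values measure the spread between these libraries, which may be partly technical.

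Bone-forming cells arise from mesenchymal progenitors through a sequence of transcription factors. Prrx1 and Twist1 mark early mesenchyme, Sox9 directs cells to cartilage and is carried by many skeletal progenitors, and Runx2 followed by Sp7 (osterix) commits cells to the osteoblast lineage. Dlx3, Dlx5 and Msx2 are homeobox genes that respond to BMP signals and act on Runx2 and its targets, while Atf4 serves both amino acid supply in many cell types and the late genes of the osteoblast. In myeloma bone disease, bone formation by this lineage is suppressed.

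The 38 libraries held 9735031 to 34883291 reads on genes, as recovered from the RPKM values (reads per kilobase and per unit of library size). The genes of the sort markers followed the gates. Ly6a (Sca1) lay between 776 and 2871 RPKM in stromal progenitors and between 0.986 and 95.2 in osteoprogenitors, and Alcam reached 1.43 in the former against 1.97 to 19.2 in the latter. The sum of 8 endothelial markers was 2330 to 4774 RPKM in endothelial libraries and at most 12.1 in stromal progenitors and osteoprogenitors. The sum of 7 myeloma and plasma cell markers was 141 to 347 RPKM in the progenitor sorts, almost all of it Xbp1 (134 to 343), while Slamf7 and Mzb1 were at most 0.149 and 0.109. The sum of 6 macrophage and osteoclast markers was 103 to 720, with Ctsk as its largest part by mean in each progenitor group (189 to 324), and Csf1r reached 7.17 in 1 group and at most 0.421 in the other 3. Neutrophil markers (4 genes) summed to 7233 RPKM in healthy stromal progenitor library L and 8061 in library E of the myeloma-bearing mice, at most 179.8 in the other 8 stromal progenitor libraries and at most 66.9 in osteoprogenitors. In these sorted bulk samples, fewer cells of a type and less RNA per cell cannot be told apart.

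In the RefSeq annotation of GRCm38.p6, the same build as the deposited values, Sox9 lies at chr11:112782210-112787757, Runx2 at chr17:44495987-44814797, Sp7 at chr15:102356603-102367035, Dlx3 at chr11:95120117-95125296, Dlx5 at chr6:6877801-6882068, Prrx1 at chr1:163245119-163315145, Twist1 at chr12:33957671-33959831 and Atf4 at chr15:80255184-80257545. The gene body of Runx2 overlaps that of Supt3, but in GENCODE vM21 its exons overlap those of Runx2os1 alone, and the reads were counted by default settings, which ignore strand. RefSeq promoter sequences were at hand for 5 of the 9 genes. The 250 bases before the start are shown for Twist1, which was expressed in mesenchymal cells, and Atf4, which was expressed in every library, since these represent the narrow and the broad pattern among the genes. Capitals mark E-boxes (CANNTG, the motif of Twist-type factors), GC boxes (GGGCGG) and CRE cores (TGACG, a motif of ATF and CREB factors), searched on both strands together with the core motifs of RUNX factors (TGTGGT) and of homeodomains (TAATTA).
Twist1 promoter, chr12:33957421-33957670, plus strand: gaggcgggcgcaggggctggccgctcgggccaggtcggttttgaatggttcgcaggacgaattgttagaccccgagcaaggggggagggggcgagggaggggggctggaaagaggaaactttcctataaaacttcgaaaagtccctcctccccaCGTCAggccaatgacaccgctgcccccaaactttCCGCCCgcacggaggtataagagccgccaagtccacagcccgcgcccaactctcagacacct
Atf4 promoter, chr15:80254934-80255183, plus strand: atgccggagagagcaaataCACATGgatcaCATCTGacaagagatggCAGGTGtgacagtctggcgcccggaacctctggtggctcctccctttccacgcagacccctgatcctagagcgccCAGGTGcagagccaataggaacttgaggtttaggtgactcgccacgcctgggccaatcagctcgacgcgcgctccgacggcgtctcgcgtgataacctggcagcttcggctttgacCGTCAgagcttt
The Twist1 window held 1 CRE core and 1 GC box and no E-box, and the Atf4 window held 4 E-boxes and 1 CRE core. Among all 32851 promoters of the same length, 66.2% held an E-box, 32.7% a GC box and 17.8% a CRE core. For Runx2, with its highest mean in osteoprogenitors, and Prrx1, with its highest mean in stromal progenitors, 30 bases around a motif of their own factor class are shown with the motif in capitals.
Runx2, chr17:44814690-44814719, minus strand: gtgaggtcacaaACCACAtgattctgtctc
Prrx1, chr1:163313806-163313835, minus strand: gcaagggaatgaTAATTAgacctttatttt
The RUNX core began 80 bases before the start used for Runx2, overlapped an E-box, and was present in 14.0% of all promoters. The homeodomain core began 173 bases before the start used for Prrx1 and was present in 4.84%. Both sites lay inside the gene bodies given above, since the starts used for Runx2 and Prrx1 were internal to the annotated genes. A match of letters is a description and not evidence of binding.

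Across the 4 cell types, 7 of the 8 genes had their highest levels in the mesenchymal sorts, while Atf4 was at 82.8 RPKM or more in every library. Among the 10 endothelial libraries Prrx1 exceeded 1 RPKM in 6, Runx2 in 3, Twist1 in 2, Dlx5 in 1 and Sox9, Sp7 and Dlx3 in none, and among the 10 myeloma cell libraries Runx2 exceeded it in 1 and the other 6 in none. Mean levels over healthy and myeloma-bearing libraries put osteoprogenitors first for Sox9, Runx2, Sp7, Dlx3, Dlx5, Twist1 and Atf4, and stromal progenitors first for Prrx1. For Dlx3 this order held in myeloma-bearing mice (6.66 against 0.746 RPKM) but not in healthy mice, where the mean was 5.49 in osteoprogenitors and 7.21 in stromal progenitors. The lowest osteoprogenitor library lay above the highest stromal progenitor library for Sox9 and Sp7 only, and Sox9 was also the single gene whose stromal progenitor and endothelial libraries were fully separated. In every other neighbouring pair of cell types in these orders the ranges overlapped. Sox9, Runx2, Sp7 and Prrx1 belong to the genes by which the study itself recognised its cell types in these libraries, so their order among cell types is not independent evidence of what the sorts contain.

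**Figure D1:**
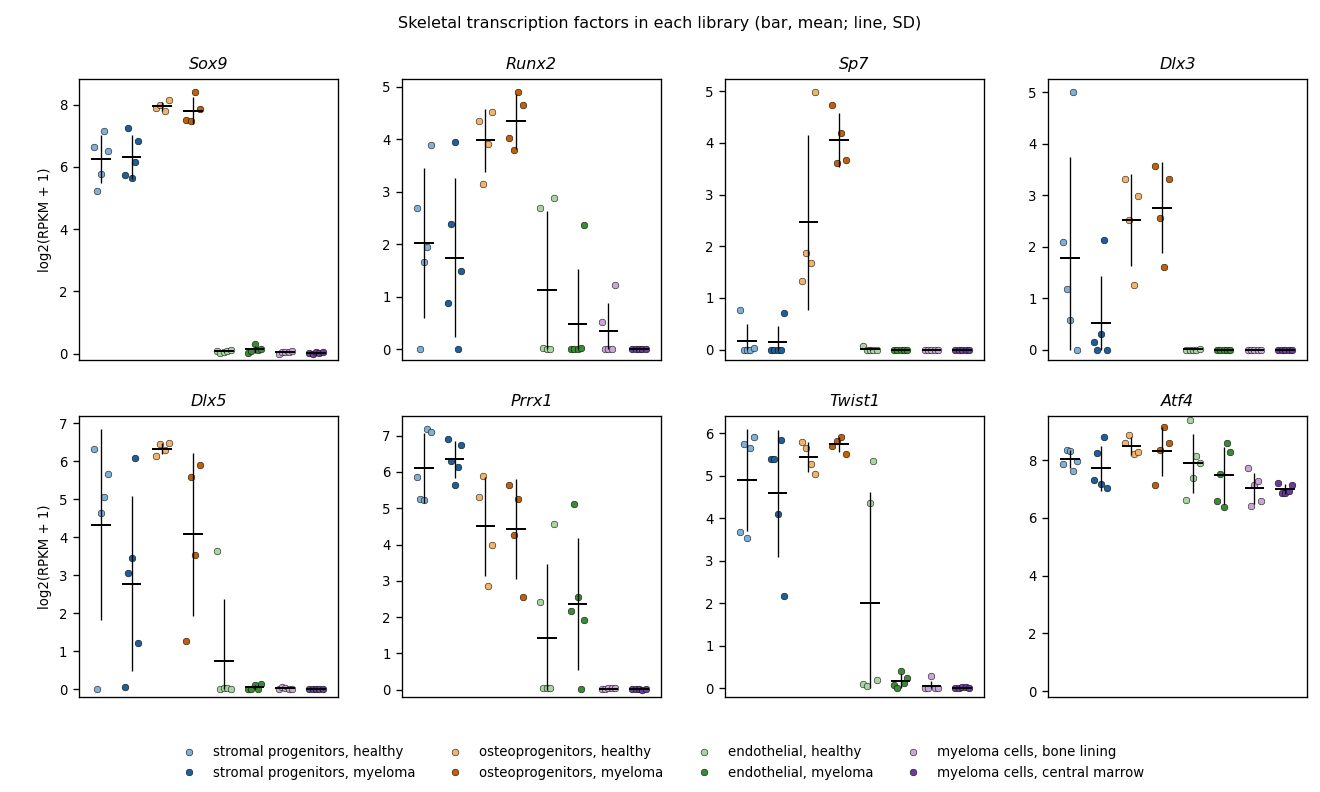
Level of each gene as log2(RPKM + 1) in every library of the 8 groups; points are libraries, bars are group means and vertical lines are SD (cut at 0 below). Sox9 is higher in every osteoprogenitor library than in every stromal progenitor library, Sp7 was above 1 RPKM in osteoprogenitors alone, and Atf4 is high in all 8 groups.

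Sox9, the HMG-box factor required for chondrocyte formation, was second only to Atf4 among these genes in osteoprogenitors, by mean RPKM. In healthy stromal progenitors its level was 98.9, 36.2, 53.9, 140.2 and 89.6 RPKM (libraries C, L, M, N and O), and in healthy osteoprogenitors 234, 253, 221 and 280.4 (L, M, N and O). All 4 osteoprogenitor libraries lay above all 5 stromal progenitor libraries. The means were 247 ± 25.9 (SD, n = 4) and 83.8 ± 40.6 (SD, n = 5), a ratio of 2.95, and the difference was 1.69 ± 0.42 (SE) on the log2(RPKM + 1) scale with an adjusted p of 0.0441 in limma. Its call was lost when osteoprogenitor library L, M or O was left out, with adjusted p of 0.113, 0.101 and 0.132, while the difference was 1.72, 1.68 and 1.63.

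In myeloma-bearing mice the order of Sox9 was the same. Stromal progenitors held 51.9, 149.9, 48.6, 70.2 and 114 RPKM (D, E, G, I and J) and osteoprogenitors 179, 175, 336 and 233 (D, G, I and J). The groups again did not overlap, with means of 86.9 ± 43.8 (SD, n = 5) and 231 ± 75.0 (SD, n = 4), but the difference of 1.49 ± 0.48 (SE) did not pass the limma threshold (adjusted p = 0.154). Endothelial libraries held 2 to 16 Sox9 reads and myeloma cell libraries at most 4, under 0.24 RPKM. The 3 genes whose levels over the 38 libraries were most like Sox9 were 3110079O15Rik (Pearson r = 0.99), Scrg1 (r = 0.99) and Hapln1 (r = 0.98), the last of which encodes the link protein of cartilage matrix. These correlations are descriptions over libraries of 4 cell types, and the part of the sort a library came from in them was not tested.

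Runx2, the runt-domain factor on which osteoblast formation depends, was present in every osteoprogenitor library and varied from absent to abundant in stromal progenitors. Healthy stromal progenitors held 5.44, 0, 2.16, 2.85 and 13.8 RPKM (C, L, M, N and O) and healthy osteoprogenitors 19.3, 7.89, 14.1 and 21.8 (L, M, N and O). Library O of the stromal progenitors reached into the osteoprogenitor range, and library L held no Runx2 read at all. Library L, which also held no Dlx5 read, had the fewest genes with reads of the 10 stromal progenitor libraries (8606) and the high neutrophil marker sum given above, and the part of these in its values was not tested. Without it the difference between the sorts was 1.44 ± 0.82 (SE, adjusted p = 0.504) for Runx2 and 0.92 ± 0.47 (SE, adjusted p = 0.447) for Dlx5. In myeloma-bearing mice, stromal progenitors held 0.855, 4.26, 14.4, 0.00469 (1 read) and 1.82 RPKM (D, E, G, I and J) against 15.3, 12.8, 28.9 and 24.1 in osteoprogenitors (D, G, I and J). The means were 4.84 ± 5.35 and 15.8 ± 6.16 in healthy mice and 4.28 ± 5.90 and 20.3 ± 7.48 in myeloma-bearing mice (SD, n = 5 and 4 in each pair). The differences of 1.95 ± 0.90 (SE, adjusted p = 0.377) and 2.59 ± 0.97 (SE, adjusted p = 0.237) did not pass the threshold. The genes most like Runx2 over the 38 libraries were Matn3, a cartilage matrix protein (r = 0.87), Zfp385b (r = 0.86) and the receptor gene Fgfr2 (r = 0.86).

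Sp7, the zinc-finger factor that acts after Runx2, was close to restricted to osteoprogenitors. Healthy osteoprogenitors held 1.51, 2.67, 2.22 and 30.6 RPKM (L, M, N and O), from 44, 77, 82 and 1286 reads. Library O stood apart from the other 3, whose mean was 2.13 ± 0.585 (SD, n = 3) against 9.25 ± 14.3 with it (SD, n = 4). Healthy stromal progenitors held 32 reads in library C (0.711 RPKM), 1 in library O and 0 in L, M and N. All 4 osteoprogenitor libraries were above them, but the difference of 2.31 ± 0.77 (SE) had an adjusted p of 0.171.

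In myeloma-bearing mice Sp7 was 25.7, 11.2, 17.2 and 11.7 RPKM in osteoprogenitors (D, G, I and J), with a mean of 16.5 ± 6.72 (SD, n = 4). Stromal progenitors held 26 reads in library J (0.643 RPKM) and none in D, E, G and I. The groups did not overlap and the difference of 3.91 ± 0.78 (SE, adjusted p = 0.0122, limma) passed both thresholds, the only one of the 8 genes to do so in these mice. No stromal progenitor library exceeded 1 RPKM, so Sp7 entered the fit through the osteoprogenitor libraries and had to be higher there. Since most of the stromal progenitor libraries are at 0, the fitted value depends on the pseudocount of 1 and is no measure of the fold. No Sp7 read was found in either myeloma cell group or in the endothelial libraries of myeloma-bearing mice. Against a floor of 3 reads per library, the osteoprogenitor mean in myeloma-bearing mice was at least 232-fold higher than bone-lining myeloma cells. The genes most like Sp7 were Bglap3, a member of the osteocalcin family (r = 0.95), Entpd3 (r = 0.94) and Cpz (r = 0.93). Reads of Bglap3 and its near-identical copies Bglap and Bglap2 could have been split by the counting.

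Dlx5, a homeobox gene that acts on Runx2 and osteoblast genes, was at a narrow level in healthy osteoprogenitors. Its values were 70.0, 86.2, 77.1 and 87.7 RPKM (L, M, N and O; mean 80.3 ± 8.30, SD, n = 4), while healthy stromal progenitors ranged from no read in library L to 79.6 in library C, with 23.7, 32.4 and 49.9 in M, N and O. The difference of 2.0 ± 0.99 (SE) had an adjusted p of 0.415, and the groups overlapped. In myeloma-bearing mice both sorts ranged widely, with 0.052 (1 read), 7.29, 9.99, 66.6 and 1.33 RPKM in stromal progenitors (D, E, G, I and J) and 1.4, 47.1, 10.7 and 59.0 in osteoprogenitors (D, G, I and J). That difference was 1.30 ± 1.25 (SE, adjusted p = 0.76). The genes most like Dlx5 were Mfi2 (r = 0.86), Shisa2 (r = 0.85) and Zfp385b (r = 0.83), the last also named for Runx2.

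Dlx3, the related homeobox gene, was lower and more scattered. Healthy osteoprogenitors held 8.93, 4.71, 1.4 and 6.91 RPKM (L, M, N and O) and healthy stromal progenitors 3.27, 1.26, 0.499, 31.0 and 0 (C, L, M, N and O). The highest of all these values was stromal progenitor library N, and the mean of the other 4 libraries of that group was 1.26 ± 1.44 (SD, n = 4). In myeloma-bearing mice osteoprogenitors held 10.8, 4.86, 2.05 and 8.96 RPKM (D, G, I and J) and stromal progenitors 0.112, 0, 0.23, 3.39 and 0 (D, E, G, I and J), overlapping in 1 library of each sort. The differences between the sorts were 0.75 ± 1.04 (SE, adjusted p = 0.851) and 2.24 ± 0.79 (SE, adjusted p = 0.203). The latter passed the thresholds without stromal progenitor library I (2.65 ± 0.73, adjusted p = 0.0864), where no other stromal progenitor library exceeded 1 RPKM and Dlx3 reached the filter through the osteoprogenitor libraries alone. Over the 38 libraries Ncmap (r = 0.86), Chadl (r = 0.82) and Prkg2 (r = 0.81) were most like Dlx3.

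Prrx1, a paired-type homeobox gene of limb mesenchyme, was the only one of the 8 genes with a higher mean in stromal progenitors in both healthy and myeloma-bearing mice. Healthy stromal progenitors held 57.0, 37.1, 36.2, 144 and 136 RPKM (C, L, M, N and O) and healthy osteoprogenitors 38.3, 58.6, 6.23 and 14.8 (L, M, N and O), with overlap. In myeloma-bearing mice the stromal progenitor values of 119, 77.7, 49.3, 68.8 and 106 (D, E, G, I and J) all lay above the osteoprogenitor values of 48.5, 18.1, 36.9 and 4.83 (D, G, I and J). The differences were -1.61 ± 0.68 (SE, adjusted p = 0.319) in healthy and -1.93 ± 0.67 (SE, adjusted p = 0.191) in myeloma-bearing mice, neither past the threshold. The genes most like Prrx1 were Col6a1, a collagen of connective tissue (r = 0.93), Tgfb2 (r = 0.93) and Olfml2b (r = 0.91).

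Twist1, a basic helix-loop-helix factor that restrains Runx2, did not separate the 2 sorts. Healthy stromal progenitors held 11.8, 52.7, 10.6, 49.4 and 59.6 RPKM (C, L, M, N and O) and healthy osteoprogenitors 55.0, 49.2, 38.1 and 31.9 (L, M, N and O). In myeloma-bearing mice the values were 41.2, 41.2, 16.3, 56.7 and 3.50 in stromal progenitors (D, E, G, I and J) and 51.0, 55.9, 59.0 and 45.0 in osteoprogenitors (D, G, I and J). Osteoprogenitors lay within the wider stromal progenitor range in healthy mice, with a median of 43.7 against 49.4 RPKM, and at its upper end in myeloma-bearing mice. The differences of 0.54 ± 0.62 (SE, adjusted p = 0.813) and 1.15 ± 0.75 (SE, adjusted p = 0.593) were not significant. Cryab (r = 0.92), Tmem218 (r = 0.91) and 0610007N19Rik (r = 0.90) were most like Twist1.

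Atf4, the leucine-zipper factor of the amino acid response, was abundant in all 38 libraries. It ranged from 197 to 329 RPKM in healthy stromal progenitors (n = 5), from 294 to 472 in healthy osteoprogenitors (n = 4), from 130.0 to 441 in stromal progenitors of myeloma-bearing mice (n = 5) and from 140.4 to 565 in their osteoprogenitors (n = 4). Osteoprogenitors had the higher mean in both kinds of mice, with overlap in each. The differences of 0.45 ± 0.30 (SE, adjusted p = 0.60) and 0.60 ± 0.49 (SE, adjusted p = 0.706) did not pass the threshold. The most similar patterns were those of Eif1 (r = 0.75), Armcx3 (r = 0.73) and Ap2m1 (r = 0.73), weaker likenesses than for the other genes.

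**Figure D2:**
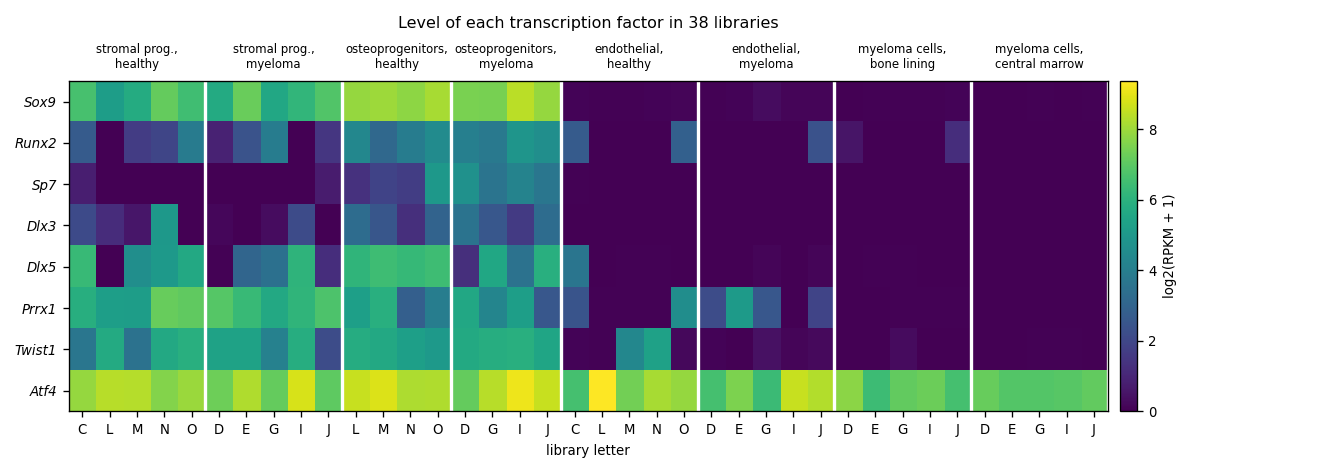
Heat map of log2(RPKM + 1) for the 8 genes (rows) in the 38 libraries (columns, by group and library letter). Among the 10 stromal progenitor libraries Dlx3 has 10 reads or fewer in 5 and Runx2 and Dlx5 have 1 or 0 in 2 each, and among the 10 endothelial libraries 6 carry Prrx1 above 1 RPKM, 3 Runx2, 2 Twist1 and 1 Dlx5.

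Between osteoprogenitors and stromal progenitors, 1 of the 8 genes passed the test in each kind of mouse, Sox9 in healthy and Sp7 in myeloma-bearing mice. The thresholds, an adjusted p below 0.1 over all genes tested and a log2 difference beyond 1, were passed by 3.58% of the 8707 genes tested in healthy and 3.35% of the 8793 genes tested in myeloma-bearing mice. Of the 8 genes, 2 (Sox9 and Sp7) had ranges that did not overlap in healthy mice and 3 (Sox9, Sp7 and Prrx1) in myeloma-bearing mice, where 6.18% and 5.64% of all tested genes had none. Sp7 and Dlx3, and in myeloma-bearing mice Runx2, were tested only because of their levels in osteoprogenitors, since they exceeded 1 RPKM in fewer than 4 stromal progenitor libraries. When all 38 libraries shared 1 estimate of the spread, Sox9 and Sp7 were called in healthy mice and Sox9, Runx2, Sp7 and Dlx3 in myeloma-bearing mice. With any osteoprogenitor library of the myeloma-bearing mice left out, Sp7 no longer exceeded 1 RPKM in 4 libraries and was not tested, which left no gene called.

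**Figure D3:**
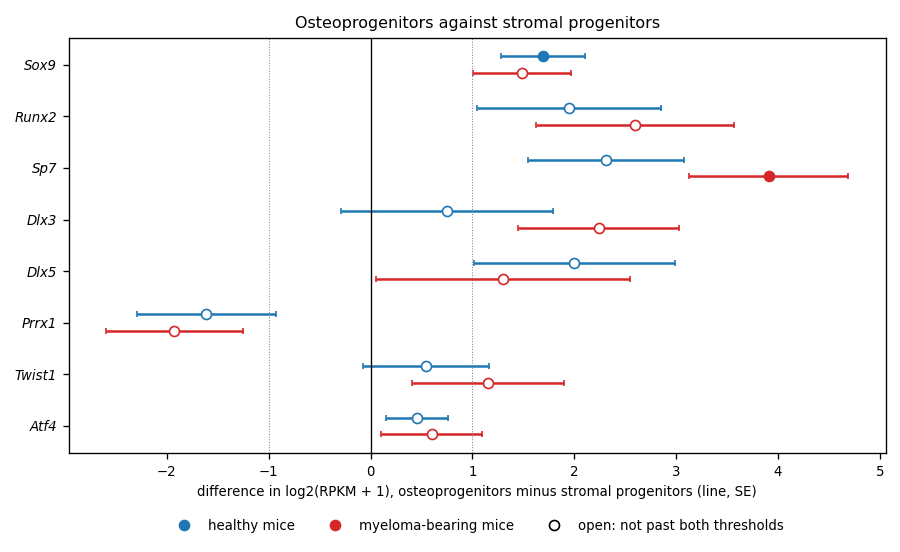
Difference in log2(RPKM + 1) between osteoprogenitors and stromal progenitors for each gene, in healthy (blue) and myeloma-bearing (red) mice; lines are SE, dotted lines mark differences of 1, and filled points passed both thresholds. Sox9 (1.69) in healthy and Sp7 (3.91) in myeloma-bearing mice are filled, and Prrx1 lies on the negative side in both.

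Osteoblast genes that these factors are known to control were in part higher in osteoprogenitors. Among 30 tested osteoblast targets of Runx2, Sp7, Dlx5 and Atf4, 15 were higher in healthy osteoprogenitors and none lower, where 3.58% of all genes were called, with a median log2 difference of 2.73 against 0.0013 over all genes. Ifitm5, an osteoblast membrane protein, differed by 9.50 ± 0.56 (SE, adjusted p = 6.06e-07), Bglap, which encodes osteocalcin, by 8.47 ± 0.55 (SE, adjusted p = 1.07e-06) and its copy Bglap2 by 7.29 ± 0.59 (SE, adjusted p = 1e-05). In myeloma-bearing mice 16 of 31 were higher and 2 lower, where 3.35% of all genes were called, with a median of 2.82. The list shares Bglap, Col1a1 and Alpl with the markers used to recognise osteoprogenitors, so its direction is not independent of them. In healthy mice 11 of the 30, of which 9 were called, Ifitm5 among them with at most 0.501 RPKM in stromal progenitors, reached the filter only with the osteoprogenitor libraries and had to be higher there, and among the other 19, which stromal progenitors alone would have admitted, 6 were called higher. In myeloma-bearing mice 10 of the 31 needed the osteoprogenitor libraries, 6 of them called, and of the other 21, 10 were called higher and 2 lower. The counts and medians of these lists are therefore a description, not support for a direction.

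Some cartilage genes known as Sox9 targets were higher in osteoprogenitors. Of 22 tested, 9 were higher in healthy osteoprogenitors and 2 lower, where 3.58% of all genes were called in either direction. Their median log2 difference was 2.58. The counts in myeloma-bearing mice were 11 higher and 1 lower, where 3.35% of all genes were called, with a median of 2.16. Col9a1, a cartilage collagen, was at 1.06 ± 2.25 RPKM in stromal progenitors and 228 ± 169 in osteoprogenitors of healthy mice (SD, n = 5 and 4; log2 difference 6.95 ± 0.81, SE, adjusted p = 0.000398). Matn3 differed by 6.13 ± 0.88 (SE, adjusted p = 0.00187) and Lect1, a cartilage glycoprotein also known as chondromodulin, by 5.05 ± 1.29 (SE, adjusted p = 0.0531). Comp and Chad, matrix proteins of cartilage and tendon, were lower in osteoprogenitors, by -1.55 ± 0.35 (SE, adjusted p = 0.0289) and -1.03 ± 0.26 (SE, adjusted p = 0.0491). Of the 9 higher cartilage genes 4, Col9a1 and Matn3 among them, and in myeloma-bearing mice 6 of the 11, reached the filter only with the osteoprogenitor libraries and had to be higher there. Among the cartilage genes that stromal progenitors alone would have admitted, 5 of 17 were higher and 2 lower in healthy mice, and 5 of 16 higher and 1 lower in myeloma-bearing mice. These genes also mark chondrocytes, and the part of such cells in the Sox9 level of the osteoprogenitor sort was not tested.

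Of 47 tested skeletal and mesenchymal transcription factors outside the 9 genes, 2 were higher and 2 lower in healthy osteoprogenitors, where 3.58% of all genes were called, with a median of -0.12. Both higher ones were among 12 that reached the filter only with the osteoprogenitor libraries. Among the higher ones Vdr, the vitamin D receptor, differed by 3.78 ± 0.69 (SE, adjusted p = 0.00806). Scx, the tendon regulator scleraxis, differed by -4.13 ± 0.81 (SE, adjusted p = 0.0131) and Meox2 by -3.26 ± 0.68 (SE, adjusted p = 0.0177). In myeloma-bearing mice 2 of 46 were higher and none lower, where 3.35% of all genes were called, with a median of -0.23. Both of these were among 15 that reached the filter only with the osteoprogenitor libraries and had to be higher there. Among 12 tested adipogenic genes 2 were higher in healthy osteoprogenitors, against the same 3.58% of all genes. Adipoq differed by 4.98 ± 1.37 (SE, adjusted p = 0.0762), which reached the filter only with the osteoprogenitor libraries, and Apoe by 4.37 ± 0.97 (SE, adjusted p = 0.0254), with a median of 0.66, and none of 14 passed in myeloma-bearing mice (median 0.19). None of 28 tested amino acid and stress targets of Atf4 passed in healthy mice (median 0.71) and none of 30 in myeloma-bearing mice (median 0.21). Of these targets 2 and 3 had an unadjusted p under 0.05, as did 1142 of all 8707 and 1095 of all 8793 genes tested.

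The study asked how myeloma alters gene expression in the bone lining, and in no sort did any of the 8 genes pass when myeloma-bearing mice were set against healthy ones. In stromal progenitors 7 were tested and Sp7 was too low, and the limma fit called 0 of 8747 genes (0.0%), with 437 at an unadjusted p under 0.05. With all 38 libraries in the fit, and 12683 genes tested, 28 genes were called by limma and 73 by voom-limma, none of them among the 8. Sox9 (0.06 ± 0.51), Prrx1 (0.22 ± 0.52), Runx2 (-0.29 ± 0.97), Twist1 (-0.32 ± 0.79) and Atf4 (-0.32 ± 0.40) had differences smaller than their SE, and the sign of the first 4 turned when single libraries were left out. Dlx3 (-1.25 ± 0.88, adjusted p = 0.971) and Dlx5 (-1.56 ± 1.24, adjusted p = 0.976) had the largest differences, and for both the groups overlapped. No stromal progenitor gene of the 7 had groups without overlap, against 0.697% of all genes tested.

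In osteoprogenitors all 8 genes were tested and none passed, while the fit called 1 of 8664 genes (0.0115%), and 24 or 26 with all 38 libraries in limma or voom-limma, again none of the 8. Dlx5 was the only one of the 8 whose groups did not overlap, against 2.65% of all genes tested. The healthy libraries lay between 70.0 and 87.7 RPKM and the myeloma-bearing ones at 1.4, 47.1, 10.7 and 59.0, a mean of 29.6 ± 27.8 against 80.3 ± 8.30 (SD, n = 4 each) and a ratio of 0.368. The difference of -2.26 ± 0.84 (SE) had an unadjusted p of 0.0175 and an adjusted p of 0.981 in limma. Without library D, the lowest, the mean was 38.9 ± 25.2 (SD, n = 3) and the difference -1.32 ± 0.59 (SE, adjusted p = 0.98). Sp7 differed by 1.58 ± 0.95 (SE, adjusted p = 0.981), and without healthy library O by 2.42 ± 0.91 (SE, adjusted p = 0.973). The other 6 genes differed by less than their SE: Sox9 by -0.14 ± 0.35, Runx2 by 0.36 ± 0.67, Dlx3 by 0.24 ± 0.92, Prrx1 by -0.09 ± 0.84, Twist1 by 0.29 ± 0.47 and Atf4 by -0.18 ± 0.41.

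**Figure D4:**
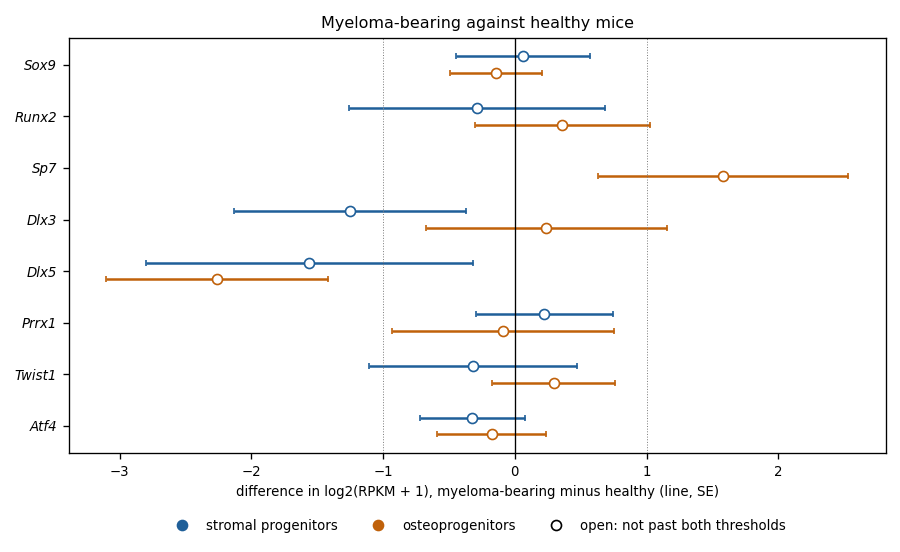
Difference in log2(RPKM + 1) between myeloma-bearing and healthy mice for each gene, in stromal progenitors (blue) and osteoprogenitors (orange); lines are SE and dotted lines mark differences of 1. All points are open, that is, none passed both thresholds, and Dlx5 is on the negative side in both sorts (-1.56 and -2.26); Sp7 was not tested in stromal progenitors.

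Library O, the healthy osteoprogenitor library with high Sp7, was also high in osteocalcin. Bglap was 13983, 6211, 15756 and 45659 RPKM in healthy osteoprogenitors (L, M, N and O) and 54769, 29189, 35375 and 23958 in those of myeloma-bearing mice (D, G, I and J). The 5 libraries with more than 11 RPKM of Sp7 were thus the 5 with the most Bglap. In stromal progenitors Bglap was between 14.1 and 197 RPKM, and of the 2 libraries with more than 1 Sp7 read, J (26 reads) held the highest value (197) and C (32 reads) 65.1, below I (157) and O (82.3) with 0 and 1 Sp7 reads. The part of the share of mature osteoblasts in a library in its Sp7 level was not tested.

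**Figure D5:**
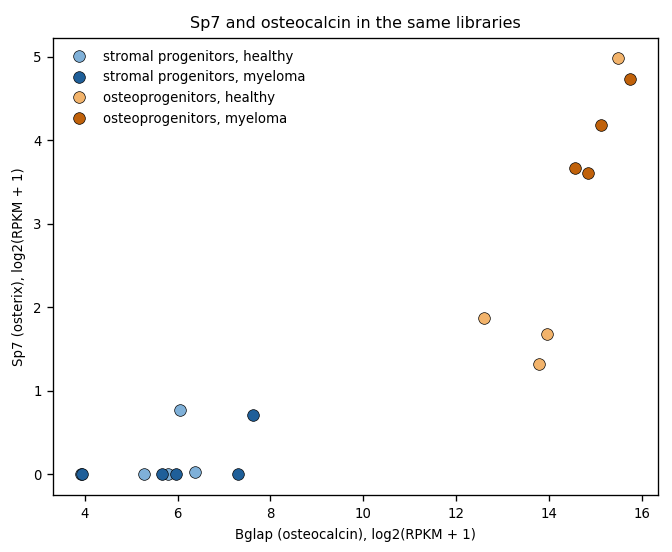
Sp7 against Bglap, both as log2(RPKM + 1), in the 18 libraries of stromal progenitors (blue) and osteoprogenitors (orange), with light points for healthy and dark points for myeloma-bearing mice. The 5 osteoprogenitor libraries with the most Bglap, 4 from myeloma-bearing mice and healthy library O, are those with the most Sp7.

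The change under myeloma did not differ between the 2 sorts for any of the 8 genes in the interaction test, which called 0 of 10735 genes (0.0%), with 437 at an unadjusted p under 0.05. The change in stromal progenitors minus that in osteoprogenitors was -1.60 ± 1.06 (SE) for Sp7, -1.49 ± 1.31 for Dlx3 and 0.70 ± 1.69 for Dlx5, all with an adjusted p of 1.00. Nor did any gene of the 6 context lists pass in these comparisons. In osteoprogenitors 6 of 32 osteoblast targets had an unadjusted p under 0.05, as did 422 of all 8664 genes, with a median difference of 0.44 for the list and -0.028 for all genes, while 0 of 22 cartilage targets had one (median 0.20).

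Endothelial cells held no or few reads of Sox9, Sp7 and Dlx3, while Prrx1 exceeded 1 RPKM in 6 of the 10 libraries and Runx2, Twist1 and Dlx5 in 1 to 3. Only Prrx1 and Atf4 passed the filter for the comparison of myeloma-bearing with healthy mice, and neither was called (0.93 ± 1.18 and -0.41 ± 0.61, SE, adjusted p = 0.983 and 0.985), in a fit that called 0 of 7880 genes (0.0%) with 414 at an unadjusted p under 0.05 and 150 or 250 with all 38 libraries in limma or voom-limma. Prrx1 was 4.38, 0.0382, 0.0287, 0.0316 and 22.9 RPKM in healthy (C, L, M, N and O) and 3.54, 33.4, 4.87, 0.02 and 2.82 in myeloma-bearing mice (D, E, G, I and J). Runx2 was present in the libraries C (5.48 RPKM, 811 reads), O (6.38, 1324 reads) and J (4.14, 1223 reads), and in the other 7 it had at most 2 reads. Twist1 was 19.4 and 39.8 RPKM in healthy libraries M and N and at most 0.339 in the others, and Dlx5 was 11.6 RPKM in healthy library C, with 282 reads, and had at most 5 reads elsewhere. No endothelial library carried both Runx2 and Twist1 above 1 RPKM, which with so few libraries is a description only. The sum of 7 osteoprogenitor markers was 60.9 and 97.7 RPKM in healthy libraries C and O, 26.1 and 36.2 in M and N, and 120.1 in J, against a range of 16.4 to 155 over all 10 endothelial libraries and at least 8086 in osteoprogenitors. Pdgfra, a stromal progenitor marker, was 1.23, 6.01 and 5.17 RPKM in libraries C, M and J and at most 0.155 in the others, N and O among them. The part of other cells in these single levels was not tested.

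Myeloma cells expressed Atf4 alone of the 8 genes at a level that could be tested. Bone-lining myeloma cells held 213, 83.9, 139.7, 154 and 95.9 RPKM (D, E, G, I and J) and central marrow myeloma cells 147, 115, 116, 122 and 138 (D, E, G, I and J). The groups overlapped and the difference was 0.03 ± 0.25 (SE, adjusted p = 0.998), in a fit that called 0.203% of 8857 genes. Runx2 gave 93 and 152 reads in bone-lining libraries D and J (0.443 and 1.33 RPKM) and none in the other 3 or in the 5 central marrow libraries. Sp7 and Dlx3 gave no read in any of the 10 libraries, Sox9, Prrx1 and Twist1 at most 8, and Dlx5 at most 1.

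Set against endothelial cells of healthy mice, the average of the 2 mesenchymal sorts was higher for 5 of the 8 genes, in a fit where 13.7% of 9952 genes were called higher. Sox9 differed by 7.02 ± 0.52, Dlx5 by 4.59 ± 0.95, Prrx1 by 3.89 ± 0.84, Twist1 by 3.17 ± 0.91 and Dlx3 by 2.14 ± 0.72 (SE, adjusted p from 1.59e-08 to 0.0511). Runx2 (1.88 ± 0.79, adjusted p = 0.122), Sp7 (1.30 ± 0.54, adjusted p = 0.118) and Atf4 (0.37 ± 0.40, adjusted p = 0.586) were not called. Runx2 passed the thresholds without endothelial library C (2.28 ± 0.84, adjusted p = 0.0776), without endothelial library O (2.32 ± 0.82, adjusted p = 0.0683) or without stromal progenitor library L (2.14 ± 0.77, adjusted p = 0.0691). All genes tested had a median difference of 0.31 in this comparison.

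Set against bone-lining myeloma cells, the average of the 2 progenitor sorts of myeloma-bearing mice was higher for 7 of the 8 genes, where 21.1% of 10678 genes were called higher. The differences ran from 1.64 ± 0.44 for Dlx3 (SE, adjusted p = 0.00807) through 2.10 ± 0.37 for Sp7, 2.69 ± 0.61 for Runx2, 3.40 ± 0.90 for Dlx5, 5.11 ± 0.57 for Twist1 and 5.35 ± 0.52 for Prrx1 to 7.01 ± 0.41 for Sox9 (SE, adjusted p = 3.25e-10). The sorts were not tested singly here, and stromal progenitors held no Sp7 read in 4 of 5 libraries and no Dlx3 read in 2. These 7 genes entered this fit, and that against endothelial cells, through the mesenchymal libraries, so they had to be higher there and their number is no support of its own. Atf4 was 0.98 ± 0.39 higher (SE, adjusted p = 0.0569), just under the fold threshold. Of its 35 tested amino acid and stress targets 6 were higher in the mesenchymal sorts and 15 lower, with a median difference of -1.26 against -0.19 over all genes, of which 21.1% were called higher and 21.5% lower.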

How the data were processed

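Per the labels and the methods of the study, single-end SmartSeq2 reads were aligned to GRCm38 with STAR 2.4.0, counted by featureCounts of Subread 1.4.5-p1, filtered on CPM and converted by the authors with edgeR to RPKM, the deposited unit. Whole reads behind the RPKM values were recovered for all 13260 genes, as the multiples of the step that 1 read is worth. Comparisons used limma 3.58.1 (eBayes with trend, R 4.3.3) on log2(RPKM + 1), over the libraries compared and those genes that exceeded 1 RPKM in 4 or more of them. Calls needed a Benjamini-Hochberg adjusted p below 0.1, over all genes tested, and a log2 difference beyond 1, and log2(RPKM + 1) understates the change of low genes. Likeness was Pearson's r of log2(RPKM + 1) over 38 libraries among 12683 genes above 1 RPKM in at least 4, giving the 3 highest. From each context list, up to 3 of the largest rises and falls between the sorts in healthy mice are named, except an item that is not reported here. The members and lists were chosen with earlier results of these data known. Alternatives were another pseudocount, no filter, 1 fit of all libraries, voom-limma on the reads, rescaling, array weights, the library letter as a block and leaving out each library. Reads carry no molecular identifiers, so floors cover counting error only. Figures were drawn with matplotlib 3.10.9 in Python 3.11.15.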

Additional observations from a re-analysis of the deposited data

Results flagged for a closer look

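In 5 of 41 combinations of gene and group with a library above 1 RPKM, 1 library stood far from the others by Dixon's ratio on log2(RPKM + 1). That library alone exceeded 1 RPKM in its group for Runx2, for Dlx3 and for Dlx5 in endothelial cells. It thus admitted its own group, so the count of 5 is a description and cannot be set against a chance rate. Sp7 was 30.6 RPKM in healthy osteoprogenitor library O, and the next library held 2.67. Runx2 was 4.14 RPKM in endothelial library J of the myeloma-bearing mice against at most 0.0174 in the others. Dlx5 was 11.6 RPKM in healthy endothelial library C against at most 0.0335 in the others, and it was 0 in healthy stromal progenitor library L, where the next lowest library held 23.7. Dlx3 was 3.39 RPKM in stromal progenitor library I of the myeloma-bearing mice against at most 0.23 in the others.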

How the results depend on the processing

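Of the single differences, 898 of 962 refits left the direction and the side of the thresholds as they were, 34 newly passed the thresholds, 4 no longer passed and 26 changed sign. In osteoprogenitors against stromal progenitors of healthy mice, 1 gene was called, 2 when all 38 libraries were fitted together, by limma or by voom-limma, and 0 to 1 with a library left out. In myeloma-bearing mice 1 was called, 4 when all 38 libraries were fitted together, 3 by voom-limma with or without the other libraries and with array weights, 2 after rescaling, and 0 to 2 with a library left out. No comparison of myeloma-bearing with healthy mice called any of the 8 genes under any alternative run. Against endothelial cells 5 genes were called, 5 to 6 with a library left out, 4 with array weights, where Dlx3 (2.20, adjusted p = 0.112) was not called, and 7 with all 38 libraries in limma or voom-limma or after rescaling, with Runx2 and Sp7 added, and against bone-lining myeloma cells 6 to 8. With an osteoprogenitor library of the myeloma-bearing mice left out, Sp7 did not reach the filter against stromal progenitors or myeloma cells and was not tested. When voom-limma was run on recovered reads, 248 genes were called between the sorts in healthy mice and 251 in myeloma-bearing mice, against 312 and 295. With all 38 libraries fitted together the counts were higher, 501 and 600 by limma and 616 and 529 by voom-limma, where 12683 genes were tested. For the difference between the myeloma effects in the 2 progenitor sorts they were 16 and 13, with none of the 8 genes among them.

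Signs that changed were those of small differences. In stromal progenitors, the difference between myeloma-bearing and healthy mice was -0.052 for Sox9 with array weights, and with a library left out it ran from -0.20 to 0.28 for Sox9, -0.84 to 0.18 for Runx2, -0.66 to 0.28 for Twist1 and -0.0022 to 0.49 for Prrx1. In osteoprogenitors it was 0.037 for Prrx1 by voom-limma on all libraries, and with a library left out it ran from -0.64 to 0.53 for Prrx1, -0.18 to 0.62 for Dlx3 and -0.45 to 0.21 for Atf4. Atf4 between the myeloma cell groups was -0.068 after rescaling, -0.022 with array weights and -0.14 to 0.19 with a library left out. The difference between sorts in the change of Dlx5 was -0.47 with array weights and -0.39 to 1.37 with a library left out. The cause was not tested.

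Deviations from the group mean correlated weakly between libraries of the same letter. Between the sorts the correlations were 0.000 to 0.093, against -0.087 to 0.071 for different letters. In myeloma-bearing mice the highest were those of letters G (0.093) and I (0.068), against at most 0.044 for different letters. With bone-lining myeloma cells, same letters reached 0.110 in stromal progenitors and 0.117 in osteoprogenitors, with others below 0, and different letters 0.117 and 0.080. Whether the letters are pairs is thus not settled, and the main fits did not pair them. With the replicate block, Sox9 (1.79, adjusted p = 0.0832) and Sp7 (3.87, adjusted p = 0.0695) stayed called, the number of genes called among the 8 remained 1 and 1, and genes called over the whole table fell to 268 and 195. Rescaling moved the median of all genes from 0.0013 to 0.14 in healthy mice, from -0.013 to 0.13 in myeloma-bearing mice, and from 0.31 to 0.49 against endothelial cells.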
